A study of Mus musculus with 66 samples.

Results

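The genes described here are the collagen and laminin chains of the mouse, chosen by symbol: Col, a type number, the letter a and a chain number, or Lam, the letter a, b or c and a chain number. The rule found 55 genes, 44 collagens and 11 laminins, among 30084 gene symbols. It used no measured value. Of the 55 genes, 54 passed the filter on low counts and were tested with 16145 genes in all. Col6a6 did not pass.

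Collagens are trimers of alpha chains wound into a triple helix. Fibrillar collagens build the cables of skin, bone and meninges, and fibril-associated collagens decorate those cables. Collagen IV forms the sheet of basement membranes, to which laminins, cross-shaped trimers of an alpha, a beta and a gamma chain, add a second network that binds integrins and dystroglycan on cells. In brain these basement membranes lie under the meninges and around blood vessels, where endothelial cells, mural cells, fibroblasts and astrocyte endfeet make them. Neurons themselves make certain chains, among them transmembrane and fibril-associated collagens that act at synapses.

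The study cultured neurons from wildtype e16.5 (embryonic day) mouse embryos, males and females apart, and lowered 1 of 9 autism-associated genes with a lentiviral shRNA. The groups of each sex were cultures with no virus, cultures with a nontargeting shRNA (the Luc columns of the table) and cultures with an shRNA against Chd8, Med13l, Setd5, Tbr1, Ash1l, Kmt2c, Kdm6b, Dnmt3a or Mbd5, with 3 libraries a group, 22 groups and 66 libraries. The virus was taken off after 6 days in culture and RNA collected after 10, at doses meant to leave about 50% of the target. All groups were wildtype cells on plates coated with poly-D-lysine, each knockdown was meant to be partial, and the shRNA sequences are not given in the sources used here. The labels speak of triplicate wells and do not say that replicates came from separate cultures or animals, so p-values measure only the spread between these libraries, which may be technical.

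Library totals ran from 13759741 to 66558546 counts. The targeted gene stood at 22.3% to 54.3% of its nontargeting mean in the 18 knockdown groups. In 2 male groups a library went against its label. Setd5 was at 141, 42.9 and 42.7 CPM (counts scaled to library size, with sizes adjusted by the TMM method of edgeR) in male Setd5 shRNA libraries 1, 2 and 3, and at 44.9, 120 and 166 CPM in male Kdm6b shRNA libraries 1, 2 and 3. Kdm6b was at 39.9, 17.2 and 17.2 CPM in the male Kdm6b shRNA libraries and at 23.1, 47.2 and 62.6 CPM in the male Setd5 shRNA libraries. So each of these groups has 1 library, labelled replicate 1, that carries the pattern of the other target. The female library labelled Setd5 shRNA replicate 1 was mixed for 4 Y-linked genes. It held 612 counts of Ddx3y and 574 of Kdm5d, where the highest other female library held 12 and 2 and the lowest male library 1690 and 696. Of Uty it held 0 counts and of Eif2s3y 24, against at least 515 and 1261 in males. Its Setd5 level, 31.9 CPM beside 61.5 and 32.9 CPM in replicates 2 and 3, did not go against the target label. These 3 libraries are called the libraries that go against their labels, the female one in 2 of the 4 Y-linked genes only. Named values for Setd5 are given with and without them, other than counts with the replicate number in the model.

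Over all 66 libraries the collagens and laminins together summed to between 267 and 465 CPM, with a median of 360 CPM. The basement membrane collagen Col4a2 led when counts were divided by exon length, at a mean of 6.30 CPM per kb and a range of 3.94 to 9.44 CPM per kb. Next came Col26a1, a small secreted collagen-like protein, at 5.59 CPM per kb, and Col6a1, a chain of the beaded filaments around cells, at 5.51 CPM per kb. Col4a1, the partner of Col4a2 in the basement membrane trimer, was at 3.10 CPM per kb. Col25a1, a neuronal transmembrane collagen also found in amyloid plaques, was at 2.32 CPM per kb. The laminin chains Lamb1 and Lamc1, which share a trimer in embryonic and vascular basement membranes, were at 2.25 and 2.16 CPM per kb. Col19a1, a fibril-associated collagen that some interneurons make, was at 2.15 CPM per kb. The ranges of these genes overlapped with those of their neighbours in this order, so only distant positions in it are separated by more than the spread over libraries.

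**Figure D1:**
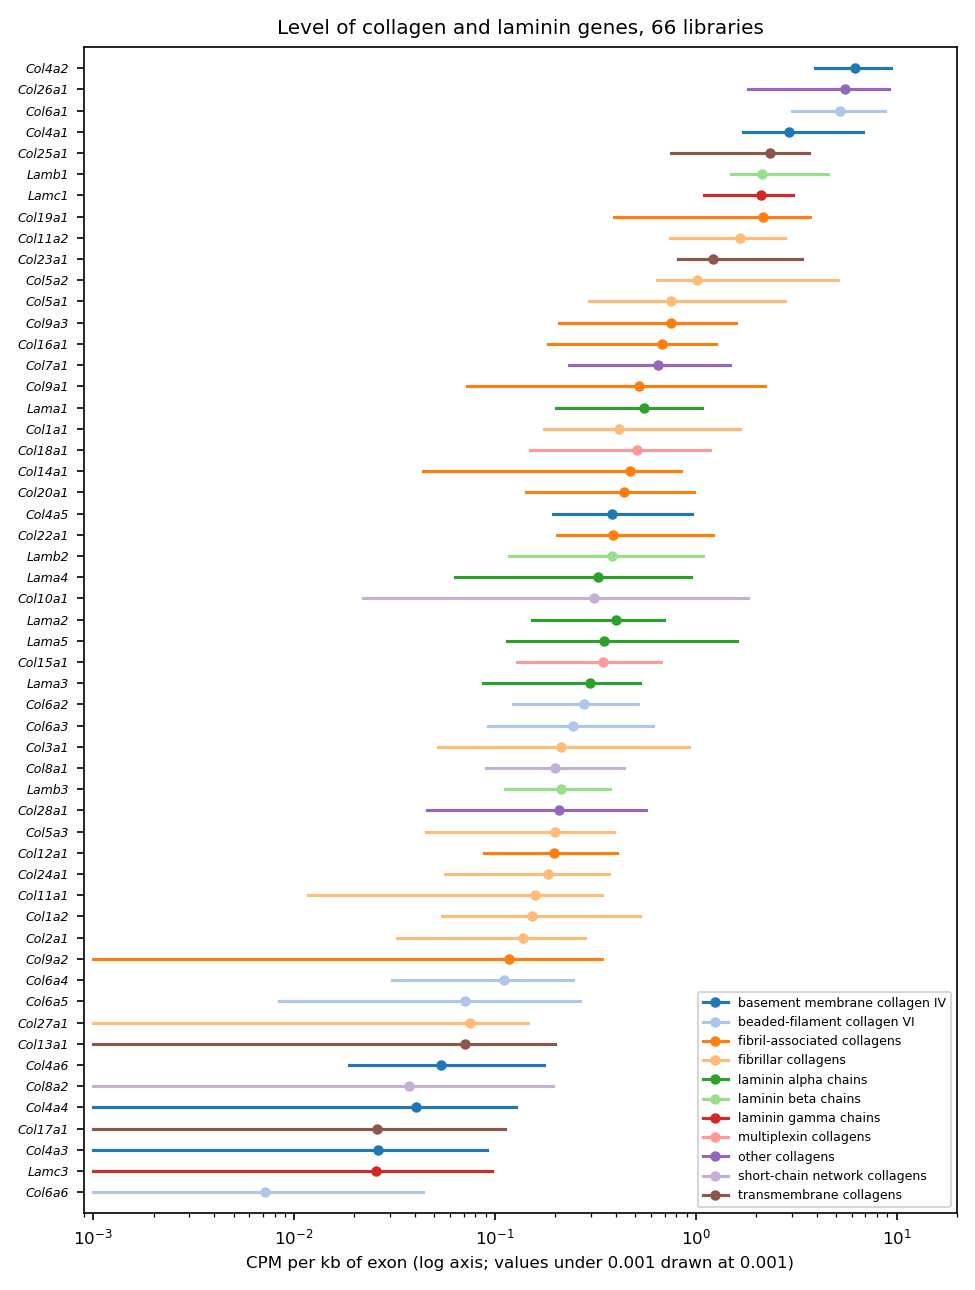
Points show the median CPM per kb of exon of 54 of the 55 genes on a log axis and lines the range over 66 libraries, coloured by structural class. Col4a2, Col26a1 and Col6a1 stand at the top and Col6a6, Lamc3 and Col4a3 at the bottom.

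By class, the 6 collagen IV chains held 19.1% of the summed CPM of all 55 genes, with Col4a2 at 41.7 and Col4a1 at 23.2 CPM. The 11 fibrillar collagens held 12.6%, led by Col5a2 at 11.3 CPM and Col11a2 at 11.2 CPM, chains of the minor fibrils that set the diameter of others. Fibril-associated collagens held 10.7%, led by Col19a1 at 14.8 CPM and Col16a1 at 4.61 CPM. Transmembrane collagens held 10.6%, nearly all of it in Col25a1 at 30.03 CPM and Col23a1 at 7.78 CPM.

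Collagen VI chains held 8.68%, led by Col6a1 at 24.1 CPM, while Col6a3, the chain that completes the filament with Col6a1 and Col6a2, was at 3.10 CPM. Among laminins the beta chains held 7.26%, the gamma chains 6.92% and the alpha chains 6.84%. Lamb1 was at 22.3 CPM and Lamb2 at 2.56 CPM, Lamc1 at 17.8 CPM, and Lama2 at 6.66 CPM and Lama1 at 5.28 CPM. The 3 remaining collagens outside these classes held 14.8%, in Col26a1 at 45.7 CPM and Col7a1, the anchoring fibril collagen of skin, at 6.88 CPM. The short-chain network collagens (Col8a1 at 1.76 and Col10a1 at 1.28 CPM) and the multiplexins (Col18a1, the source of endostatin, at 3.58 and Col15a1 at 2.17 CPM) held 0.898% and 1.59%. The chains of the major fibrils of connective tissue were low: Col1a1 averaged 3.36 CPM (range 1.15 to 10.9), Col3a1 2.496 CPM (0.509 to 9.13) and Col1a2 1.94 CPM (0.675 to 6.59). At the lower end, Col6a6 was at 0.0918 CPM and had no count in 19 libraries, and Lamc3 was at 0.166 CPM and had none in 16 libraries.

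The cultures carried the defining genes of neurons at high level and those of vessel walls and meninges at low level. The neuronal genes Stmn2, Map2 and Tubb3 averaged 1818, 1666 and 1400 CPM, and the 12 neuron markers summed to 6513 to 9614 CPM per library. Glia were the next most visible cells, with Fabp7 at 219 CPM, Slc1a2 at 213.5 CPM and Slc1a3 at 62.5 CPM, and the 11 astrocyte and radial glia markers summed to 344 to 1438 CPM. Oligodendrocyte lineage markers were led by Mbp at 23.3 CPM, Mog at 7.33 CPM and Olig1 at 6.26 CPM. Sox10, on the same list, averaged 0.028 CPM and had no count in 52 libraries. Of the fibroblast markers of the meninges, Thy1, which neurons also express, was at 222 CPM, Dcn at 20.1 CPM (range 3.62 to 50.4) and Prrx1 at 1.77 CPM. The list summed to 153 to 488 CPM with Thy1 and to 9.10 to 67.4 CPM without it, a sum added after the values were seen. Its regulators Foxc2 and Foxd1 had no count in 64 and 47 libraries, and the transporter Slc6a13 none in 42.

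Mural cell markers summed to 19.3 to 73.5 CPM, with the pericyte gene Rgs5 at 18.9 CPM, Notch3 at 5.68 CPM and Tagln at 3.87 CPM. On the same list Higd1b, Anpep and Kcnj8 had no count in 37, 23 and 17 libraries, while Pdgfrb, at 0.989 CPM, had counts in all. Endothelial markers summed to 5.78 to 13.2 CPM, and most of that was Egfl7 at 6.08 CPM, with Flt1 at 0.921 CPM and Pecam1 at 0.719 CPM. Defining endothelial genes were at or near 0: Cdh5 had no count in 53 libraries, Tie1 in 63, Sox17 in 62, and Cldn5, the tight junction gene of brain vessels, in 34. Microglial markers summed to 0.468 to 4.19 CPM, led by Aif1 at 1.19 CPM. Choroid plexus markers summed to 2.94 to 17.3 CPM, mostly Sostdc1 at 4.57 CPM. In bulk RNA, fewer cells of a type and less RNA per cell cannot be told apart.

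**Figure D2:**
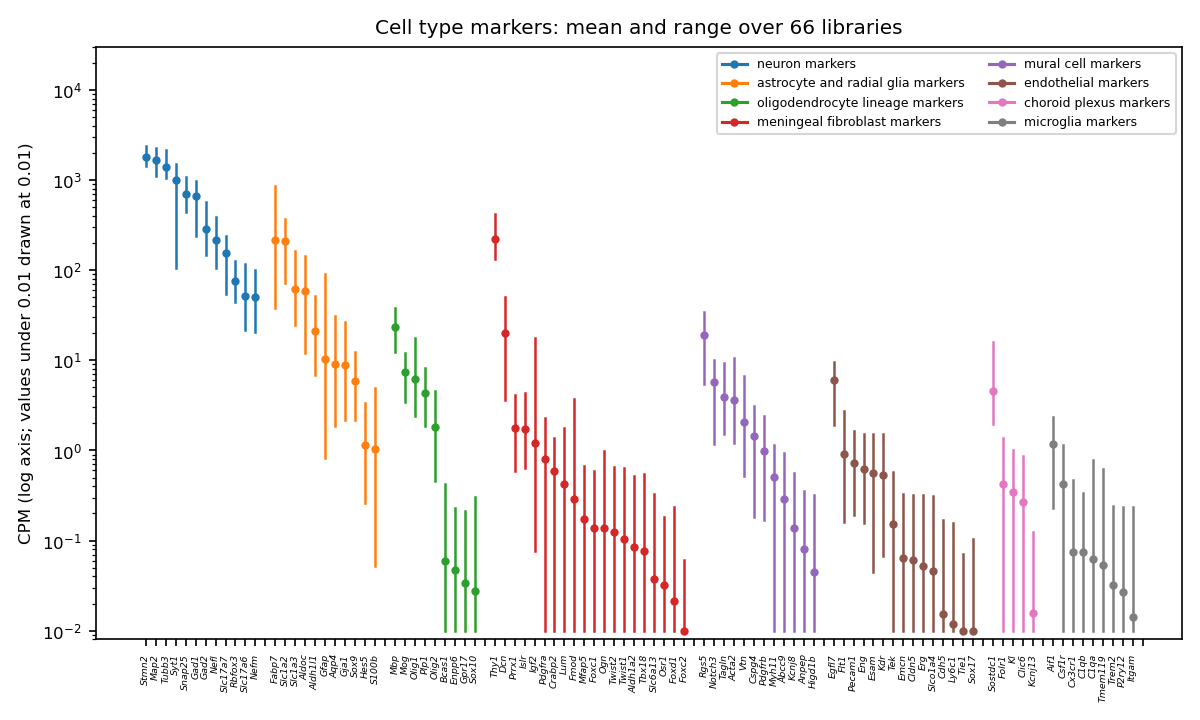
Points show mean CPM on a log axis of each marker gene and lines its range over 66 libraries, grouped by cell type. Neuron markers stand highest, while the means of endothelial, microglial and meningeal genes other than Thy1 and Dcn lie under 10 CPM.

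The main question of the design, what each knockdown did, gave few calls among these genes. Here a call is an adjusted p under 0.05 from the quasi-likelihood test of edgeR, with Benjamini-Hochberg adjustment over all 16145 genes. In 5 of 18 knockdown comparisons at least 1 of the 54 tested genes was called, and 7 different genes were called at least once. In males Chd8 shRNA had 3 calls, 2 higher and 1 lower, or 5.56% of the 54 genes, against 9.82% of all genes tested (3.64% higher and 6.18% lower). Male Med13l shRNA had 2 calls, both lower, or 3.7%, against 8.06% of all genes (4.92% lower). In females Chd8 shRNA had 4 calls, 3 higher and 1 lower, or 7.41%, against 9.33% (3.34% higher and 5.99% lower). Female Med13l shRNA had 3 calls, all lower, or 5.56%, against 10.2% (5.49% lower). Female Setd5 shRNA had 1 call, lower, or 1.85%, against 3.12% (2.14% lower). In all 5 comparisons the share of the 54 called in either direction was below that of all genes. That holds with all libraries and no replicate number in the model. For female Setd5 it turned, on 2 genes, without the libraries that go against their labels. So these counts are no result about the genes as a group.

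In the other 13 comparisons edgeR called none of the 54. The shares of all genes called there were 1.98% for Ash1l, 0.111% for Dnmt3a, 0.0867% for Kdm6b, 0.0867% for Kmt2c, 0.0619% for Mbd5, 0.0557% for Setd5 and 0.217% for Tbr1 in males. In females they were 1.10% for Ash1l, 0.118% for Dnmt3a, 0% for Kdm6b, 0.0991% for Kmt2c, 0.0557% for Mbd5 and 0.0619% for Tbr1. At an unadjusted p under 0.05 the male comparisons without calls held 8, 2, 0, 1, 2, 2 and 3 of the 54 genes in that order and the female ones 4, 2, 3, 1, 1 and 3. DESeq2 also called none of the 54 in these 13. The median log2 fold change of the 54 genes was -0.02 in males and -0.03 in females for Chd8, -0.20 and -0.33 for Med13l, and -0.17 and -0.22 for Setd5 (-0.16 and -0.21 without the libraries that go against their labels).

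**Figure D3:**
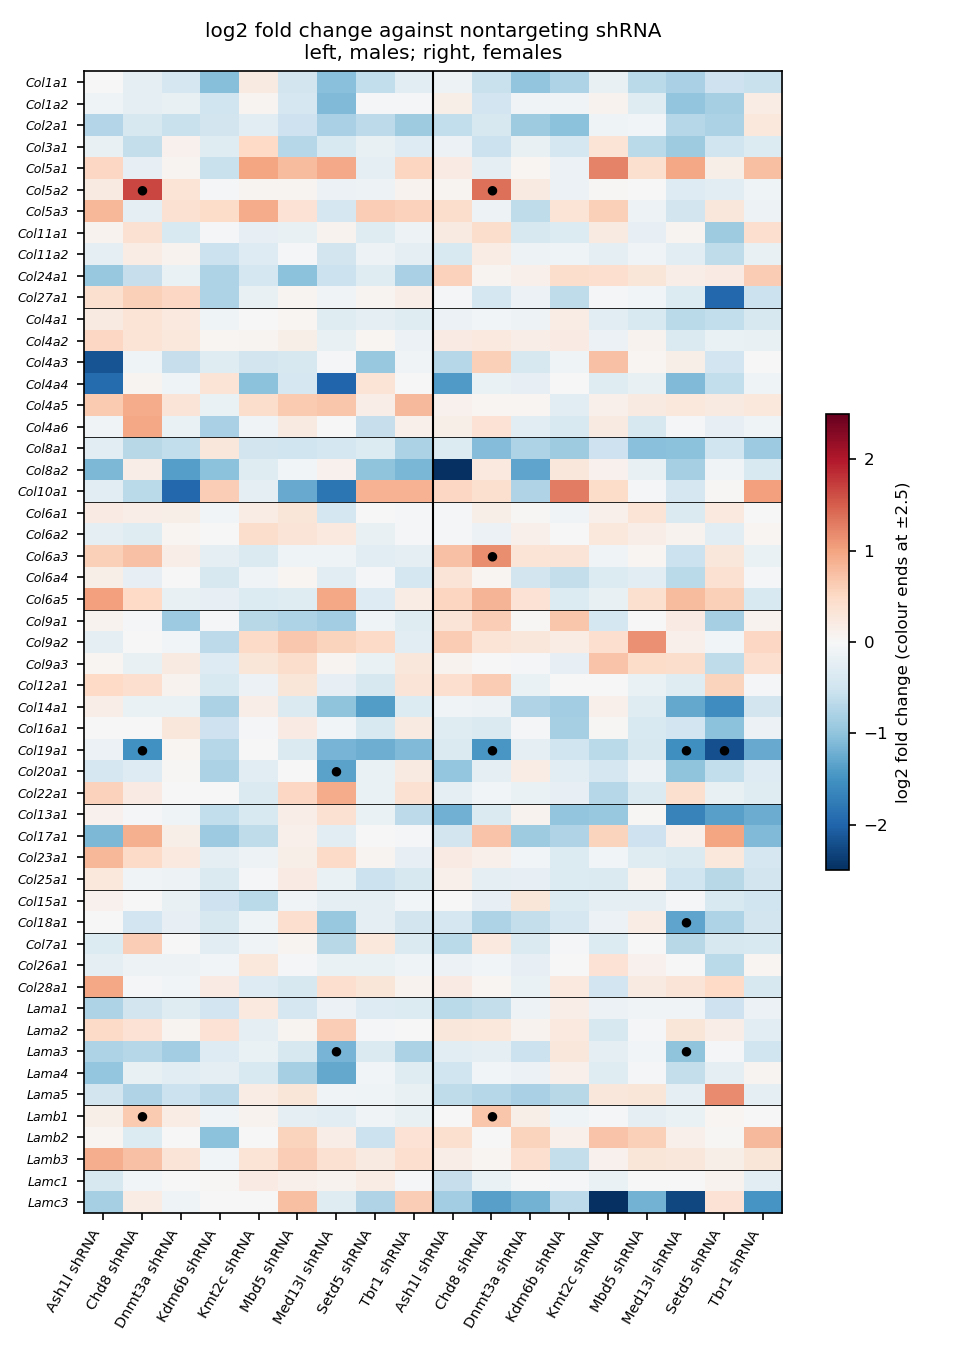
Colour shows the log2 fold change of the tested genes, with 1 not shown, against nontargeting shRNA for 9 knockdowns in males and 9 in females, and dots mark adjusted p under 0.05. Dots fall on Col19a1, Col5a2, Lamb1, Col6a3, Lama3, Col18a1 and Col20a1, and the strongest colours without dots belong to genes of very low level such as Col8a2, Col4a3 and Lamc3.

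Col19a1 fell in more knockdowns than any other collagen or laminin chain: it was called in both sexes for Chd8 and in females for Med13l and Setd5. The gene lies on chromosome 1 from 24261890 to 24587472 on the minus strand (GRCm38), and its protein associates with fibrils and basement membranes. In nontargeting males it was at 24.6, 20.5 and 23.9 CPM and in Chd8 shRNA males at 9.74, 7.67 and 6.84 CPM. In nontargeting females it was at 17.7, 22.4 and 21.7 CPM and in Chd8 shRNA females at 7.47, 6.11 and 8.97 CPM. All 6 Chd8 libraries lay below all control libraries of their sex, and the log2 fold changes were -1.51 ± 0.39 (SE; adjusted p = 0.00712) in males and -1.46 ± 0.39 (adjusted p = 0.0101) in females.

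With Med13l shRNA, Col19a1 was at 3.44, 11.1 and 6.62 CPM in females, a log2 fold change of -1.54 ± 0.39 (adjusted p = 0.00657), and at 10.4, 12.8 and 7.77 CPM in males, -1.16 ± 0.39 (adjusted p = 0.0529), which missed the threshold. With Setd5 shRNA it was at 3.61, 7.10 and 2.70 CPM in females, a log2 fold change of -2.20 ± 0.41 (adjusted p = 0.00113). In both sexes the Med13l libraries lay apart from the nontargeting ones, and so did the female Setd5 libraries. Cultures with no virus were close to nontargeting ones, at 23.2, 19.0 and 23.0 CPM in males and 15.6, 21.3 and 16.0 CPM in females. The test of the difference between sexes called Col19a1 for no knockdown; for Setd5 the difference, males minus females, was 0.99 ± 0.55 (unadjusted p = 0.0811). That value turns with the libraries: without those that go against their labels it was -0.40 ± 0.45 (unadjusted p = 0.377), and without Setd5 male replicate 1 alone -0.26.

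Col19a1 followed the level of the targeted gene in the male libraries that go against their labels. In males, the library labelled Setd5 shRNA replicate 1 was at 21.2 CPM beside 3.53 and 4.796 CPM in replicates 2 and 3, and the library labelled Kdm6b shRNA male replicate 1 was at 5.50 CPM beside 18.4 and 18.3 CPM. With all libraries the male Setd5 value was -1.22 ± 0.39 (adjusted p = 0.367). Without the 3 libraries it was -2.46 (adjusted p = 5.24e-06), and the female Setd5 value was -2.06 (adjusted p = 1.82e-04). Male Med13l then passed the threshold too, at -1.14 (adjusted p = 0.00376). Tbr1 libraries, at 13.1, 7.05 and 11.97 CPM in males and 6.31, 10.4 and 9.26 CPM in females, did not overlap with nontargeting ones in either sex, and Col19a1 was then called in females at -1.26 (adjusted p = 0.0360) and not in males at -1.10 (adjusted p = 0.0658).

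Col19a1 lost its call in 3 comparisons when 1 library was left out, at close to the same size for Chd8. It was -1.40 (adjusted p = 0.0538) for male Chd8 without Chd8 replicate 3, -1.45 (adjusted p = 0.0625) for female Chd8 without Chd8 replicate 1, and -1.21 (adjusted p = 0.119) for female Med13l without Med13l replicate 1. Because some inhibitory neurons make Col19a1, the enzymes of GABA synthesis are given beside it. Gad2 fell with Chd8 shRNA by 0.65 and 0.73 on the log2 scale in males and females, and Gad1 fell by 0.75 with Med13l shRNA in males. Gad1 was not called with Chd8 shRNA, nor Gad2 with Med13l shRNA, nor Gad1 with Med13l shRNA in females. With Setd5 shRNA 0 neuron markers, Gad1 and Gad2 among them, were called in either sex. That held with and without the libraries that go against their labels. Leaving out 1 library ended the Gad2 calls in 5 of 6 fits in males and 3 of 6 in females (adjusted p up to 0.173 and 0.124), and the Gad1 call in 4 of 6 (up to 0.132). Gad1 also fell by 1.36 and 1.204 with Ash1l shRNA, where Col19a1 was at -0.14 and -0.36 on the log2 scale and not called. The part of these changes in the Col19a1 values was not tested.

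In the Chd8 libraries, Col5a2, Lamb1 and Col6a3 moved the other way from Col19a1, Col5a2 the most. Promoter sequences are shown for Col19a1 and, of those that rose, for Lamb1 and Col6a3 only. Each is the stretch before the RefSeq start on GRCm38.p6, 5′ to 3′ on the strand of the gene, ended at the outermost annotated start, with a CCAAT box (CCAAT) or a GC box (GGGCGG), found on either strand, in capitals.
Col19a1, chr1:24587473-24587687, minus strand: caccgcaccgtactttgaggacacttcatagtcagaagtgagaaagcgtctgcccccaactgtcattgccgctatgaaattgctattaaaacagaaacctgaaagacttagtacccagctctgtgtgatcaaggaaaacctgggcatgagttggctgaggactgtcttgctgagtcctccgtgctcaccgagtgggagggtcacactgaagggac
Lamb1, chr12:31265043-31265233, plus strand: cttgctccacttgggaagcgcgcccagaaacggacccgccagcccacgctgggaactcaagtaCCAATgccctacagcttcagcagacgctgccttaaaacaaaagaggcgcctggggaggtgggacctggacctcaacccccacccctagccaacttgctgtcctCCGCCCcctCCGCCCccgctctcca
Col6a3, chr1:90843972-90844221, minus strand: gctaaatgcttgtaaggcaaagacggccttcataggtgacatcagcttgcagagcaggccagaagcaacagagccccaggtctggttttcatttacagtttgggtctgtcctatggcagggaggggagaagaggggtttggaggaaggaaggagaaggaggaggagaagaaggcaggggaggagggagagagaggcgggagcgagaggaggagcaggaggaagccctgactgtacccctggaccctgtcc
The Lamb1 stretch holds 1 CCAAT box and 2 GC boxes, which read CCGCCC on this strand, and those of Col19a1 and Col6a3 hold none of either. The RefSeq table matched 40 of the 55 genes with 44 promoters. Within 250 bases before the start, 24 of the 44 (54.5%) held GGGCGG against 32.7% of 32851 promoters, 31.8% held CCAAT against 33.8%, 11.4% held TATAAA against 12.4%, and 0 held CACGTG against 6.0%. Median GC was 59% for the 44 and 52.4% for all, and these matches are descriptions of letters only.

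Chd8 shRNA raised 3 chains of different trimers. Col5a2, which with Col5a1 forms the collagen V trimer that nucleates fibrils, lies on chromosome 1 from 45374321 to 45503282. It was at 8.45, 9.54 and 7.95 CPM in nontargeting males and 23.0, 26.4 and 33.0 CPM in Chd8 shRNA males. In females it went from 11.3, 11.1 and 9.09 CPM to 49.1, 14.4 and 18.9 CPM. No Chd8 library overlapped with a control of its sex, and the fold changes were 3.17 (log2 1.67 ± 0.24, adjusted p = 1.99e-06) in males and 2.61 (log2 1.39 ± 0.24, adjusted p = 5.39e-05) in females. In no other knockdown was Col5a2 called. In females the size rests on 1 library: without Chd8 replicate 1, at 49.1 CPM, the log2 fold change was 0.67 (adjusted p = 0.0547).

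Lamb1, the beta chain of the common laminin trimers (chromosome 12, 31265234 to 31329644), rose in both sexes. It was at 21.02, 24.1 and 23.0 CPM in nontargeting males and 31.5, 30.1 and 45.1 CPM with Chd8 shRNA. In females it was at 17.9, 21.7 and 20.9 CPM and 35.3, 32.3 and 30.8 CPM. Again no libraries overlapped, with log2 fold changes of 0.65 ± 0.18 (adjusted p = 0.0105) and 0.70 ± 0.18 (adjusted p = 0.00563). The male call was lost without Chd8 replicate 3 (0.44, adjusted p = 0.189) and without nontargeting replicate 1 (0.60, adjusted p = 0.0606).

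Col6a3 (chromosome 1, 90765923 to 90843971) was called in females alone. It was at 1.77, 2.83 and 2.67 CPM in nontargeting females and 7.32, 4.06 and 5.03 CPM with Chd8 shRNA, a log2 fold change of 1.16 ± 0.31 (adjusted p = 0.00919). In males it was at 2.47, 3.36 and 3.39 CPM and 5.13, 4.005 and 6.27 CPM, 0.74 on the log2 scale (adjusted p = 0.129). The groups did not overlap in either sex, and the difference between sexes was -0.43 ± 0.43 (unadjusted p = 0.327). The female call was lost without nontargeting replicate 1 (0.99, adjusted p = 0.0806), without Chd8 replicate 1 (0.90, adjusted p = 0.138) and against the no virus libraries (0.78, adjusted p = 0.0993), which were at 3.63, 3.09 and 2.86 CPM.

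The chains that pair with these 3 were not called with Chd8 shRNA. In males and females, Col5a1 was at -0.21 and -0.24 on the log2 scale, Col5a3 at -0.25 and -0.13, Col6a1 at 0.16 and 0.14, and Col6a2 at -0.31 and -0.15. Among laminins, Lamc1, which is in nearly every Lamb1 trimer, was at -0.07 and -0.16, Lama1 at -0.45 and -0.60, and Lamb2 at -0.34 and 0.01. Col4a1 and Col4a2, the collagen partners of laminin in basement membranes, were at 0.35 and -0.07 and at 0.35 and 0.24, not called.

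Markers of other cells that make matrix were summed in the same libraries. The meningeal list without Thy1 summed to 11.9 to 13.4 CPM in Chd8 shRNA males against 17.5 to 36.2 CPM in nontargeting males, and to 10.5 to 19.5 against 17.1 to 49.5 CPM in females. That difference lay in Dcn and not in the list as a whole. Dcn was at 6.53, 4.90 and 4.11 against 29.1, 22.4 and 9.56 CPM in males. In females it was at 7.81, 3.62 and 11.8 against 28.8, 9.27 and 43.4 CPM. Mural markers summed to 27.2 to 29.5 against 38.6 to 41.8 CPM in males and 26.7 to 45.04 against 33.1 to 58.6 CPM in females. Endothelial markers summed to 6.75 to 8.79 against 9.64 to 10.1 CPM and 6.85 to 8.72 against 9.74 to 11.3 CPM. Of the endothelial list, Egfl7 was called lower in both sexes, by 0.86 and 0.93 on the log2 scale (adjusted p = 0.0227 and 0.0137), calls that ended in 5 and 2 of 6 fits without 1 library (adjusted p up to 0.0970 and 0.194).

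Other lists were higher in Chd8 libraries. Choroid plexus markers summed to 5.80, 6.07 and 9.73 CPM in Chd8 shRNA males against 3.37, 4.62 and 3.98 CPM, apart, and to 9.30, 12.6 and 6.77 CPM against 3.38, 7.51 and 4.01 CPM in females, overlapping but higher at each number. None of the 4 tested markers was called. Astrocyte and radial glia markers overlapped, at 479, 446 and 858 CPM against 493, 559 and 565 CPM in males and 997, 344 and 563 CPM against 763, 611 and 637 CPM in females. Their highest Chd8 libraries, male replicate 3 and female replicate 1, were also the highest in Col5a2, at 33.0 and 49.1 CPM. The part of these cells in the Col5a2, Lamb1 and Col6a3 values was not tested.

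Med13l shRNA lowered 3 chains besides Col19a1. Lama3, the alpha chain of epithelial laminin, was at 5.19, 4.58 and 5.45 CPM in nontargeting males and 2.65, 2.44 and 1.72 CPM with the knockdown. In females it was at 2.52, 4.17 and 3.18 CPM and 0.934, 2.15 and 1.79 CPM. The groups did not overlap in either sex, and the log2 fold changes were -1.16 ± 0.31 (adjusted p = 0.0112) and -1.01 ± 0.31 (adjusted p = 0.0294). The male call was lost without Med13l replicate 3 (-0.99, adjusted p = 0.105). The female call was lost without nontargeting replicate 2 (-0.79, adjusted p = 0.211), nontargeting replicate 3 (-1.03, adjusted p = 0.0538), Med13l replicate 1 (-0.74, adjusted p = 0.295) or Med13l replicate 3 (-1.07, adjusted p = 0.0647).

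Col18a1, the basement membrane collagen whose end is released as endostatin (chromosome 10, 77052178 to 77166548), was called in females. It was at 4.997, 4.02 and 4.55 CPM in nontargeting females and 1.36, 2.05 and 2.004 CPM with Med13l shRNA, a log2 fold change of -1.31 ± 0.33 (adjusted p = 0.00570). In males it was at 4.499, 3.60 and 3.61 CPM and 2.01, 1.05 and 2.96 CPM, -0.95 on the log2 scale (adjusted p = 0.0623). Both sexes kept the groups apart. The male value passed without Med13l male replicate 3 (-1.34, adjusted p = 0.0266). Without Med13l female replicate 1 the female value was -1.15 (adjusted p = 0.0815).

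Col20a1, a fibril-associated collagen (chromosome 2, 180986535 to 181018363), was called in males. It was at 2.51, 2.09 and 3.72 CPM in nontargeting males and 1.52, 0.814 and 0.967 CPM with Med13l shRNA, a log2 fold change of -1.33 ± 0.43 (adjusted p = 0.0450). In females it was at 2.01, 2.78 and 3.68 CPM and 0.892, 1.89 and 1.39 CPM, -1.01 on the log2 scale (adjusted p = 0.122). With the replicate number, which paired these female libraries, in the model, the female value was called too, at -0.99 (adjusted p = 0.0141). The male call was lost without nontargeting male replicate 1 (-1.39, adjusted p = 0.0778) or 3 (-1.06, adjusted p = 0.232) and without Med13l male replicate 2 (-1.15, adjusted p = 0.175) or 3 (-1.24, adjusted p = 0.170).

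Summed neuron markers were lower in Med13l shRNA males, at 6702 to 7270 CPM against 8200 to 8493 CPM in nontargeting ones. In females the ranges overlapped slightly, at 6513 to 7883 CPM against 7857 to 8999 CPM. Of these markers only Syt1 and Gad1 were called in males and only Syt1 in females. Syt1, the calcium sensor of synaptic vesicles, was called lower by 2.52 and 2.16 on the log2 scale, and Notch3, a mural cell receptor, by 1.33 and 1.15. The Notch3 calls ended in 4 of 6 fits without 1 library in each sex (adjusted p up to 0.0784 and 0.351). Mural markers summed to 19.3 to 30.4 CPM in Med13l males against 38.6 to 41.8 CPM, and in females to 21.2 to 52.0 against 33.1 to 58.6 CPM. Meningeal markers without Thy1 (17.7 to 23.2 CPM in males, 15.4 to 34.0 CPM in females) overlapped with the nontargeting libraries. Astrocyte and radial glia markers summed to 573, 411 and 549 CPM in Med13l females against 763, 611 and 637 CPM, apart, and to 408, 400 and 595 CPM in males against 493, 559 and 565 CPM, overlapping, with 0 of 11 markers called in each sex. The part of these cells in the Lama3, Col18a1 and Col20a1 values was not tested.

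**Figure D4:**
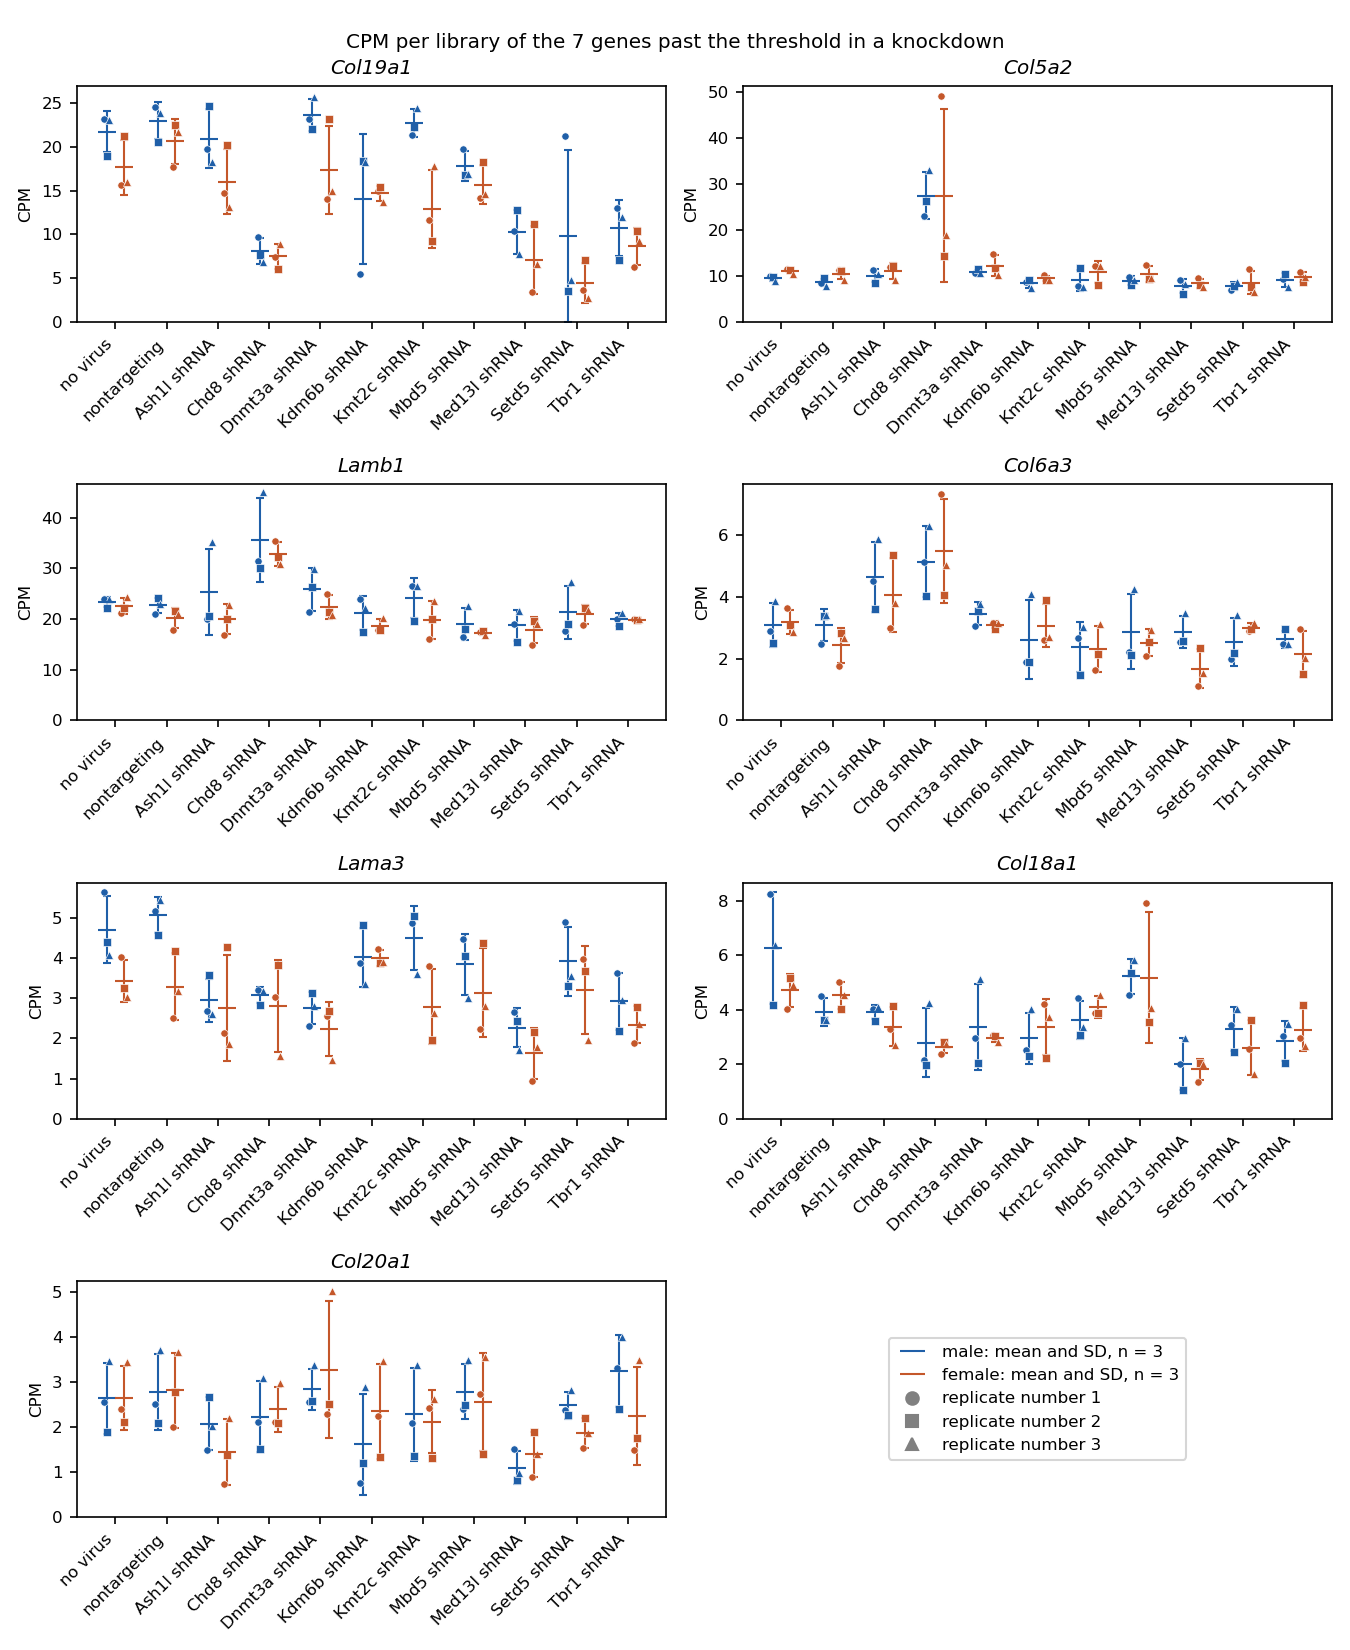
Symbols show CPM per library of the 7 genes called in a knockdown, by group and sex, with the mean and SD of 3 libraries. Col5a2 and Lamb1 stand out in the Chd8 groups, and Col19a1 is low in the Chd8, Med13l, Setd5 and Tbr1 groups, with the library labelled Setd5 shRNA male replicate 1 at the control level.

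Without the 3 libraries that go against their labels, 16412 genes were tested and Col19a1 was called in 7 of 18 knockdown comparisons. Male Chd8 kept its 3 calls (11.1% of all genes called) and female Chd8 its 4 (10.6%). Male Med13l had 3 calls, all lower (5.44% of all genes lower), and female Med13l 4, all lower (5.97%), where Col14a1, a fibril-associated collagen, joined Col18a1, Col19a1 and Lama3. Setd5 had 1 call in males, Col19a1, lower (1.24% of all genes lower). In females Setd5 had 2, Col19a1 and the fibrillar collagen Col27a1, both lower (1.16% of all genes lower, 1.35% in either direction). Tbr1 had 1 in females, Col19a1, lower (0.0975% of all genes lower). The share called lower was then above that of all genes for female Med13l, Setd5 in each sex and female Tbr1, and near it for male Med13l. These shares rest on 1 to 4 genes and are no result about the genes as a group.

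Same-numbered libraries deviated together in 6 of 9 male and 8 of 9 female comparisons, and there the replicate number of each sex was added to the model. Of these 14 comparisons, 5 then had more calls, with more calls among all genes, and 9 had 0 calls with or without it. Chd8 then had 5 genes higher and 2 lower in males (22.1% of all genes called), with Col4a5, Col6a3, Lama3 and Lamb3 added, and 4 and 3 in females (21.1%), where Col18a1 and Col8a1 were among those that joined the 4 called before. Female Med13l had 0 higher and 11 lower (13.9% of all genes lower), with Col4a1, Col6a1, Col8a1, Col13a1, Col14a1, Col20a1, Col25a1 and Lama4 added. Female Setd5 had 1 higher, Lama5, and 5 lower (13.0%), and female Ash1l had 2 lower (2.68% of all genes lower), Col20a1 and Lamc1. For female Med13l (11 genes) and female Ash1l (2 genes) the share of tested collagens and laminins called lower was then above that of all genes. Their share in either direction was not set against that of all genes here, so this is no result about the genes as a group. For Chd8 in each sex and for female Setd5 the share called in either direction stayed below that of all genes.

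No collagen or laminin was called for infection itself. Against no virus, edgeR called 0 of the 54 genes and 0% of all genes in each sex. Of the 54, an unadjusted p under 0.05 was found for 3 in males and for 1 in females, and DESeq2 called 0. Col3a1, a chain of the loose fibrils of vessel walls and meninges, had the lowest p in males. It was at 9.13, 3.71 and 5.18 CPM with no virus and 3.16, 1.39 and 3.00 CPM with nontargeting shRNA, without overlap, a log2 change of -1.26 ± 0.46 (adjusted p = 1.0). In females it was at 4.85, 4.74 and 5.56 CPM and 3.27, 1.84 and 2.84 CPM, again apart, at -0.94 ± 0.45 (adjusted p = 1.0). Its fibril partners Col1a1 (-0.78 and -0.54) and Col1a2 (-0.72 and -0.63) were not called. Col3a1 was singled out after its values were seen.

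Averaged over the 9 knockdowns, no chain was called in either sex by edgeR or DESeq2, with 0% of all genes called and 3 of 54 at an unadjusted p under 0.05 in each sex. Col19a1 was lowest of the 54 in males in that average, at -0.69 ± 0.27, and was at -0.96 ± 0.26 in females (unadjusted p = 0.0131 and 6.15e-04), or -0.78 and -0.94 without the libraries that go against their labels, again not called (adjusted p = 0.401 and 0.117). No chain was called for a difference of a knockdown between males and females by edgeR or DESeq2. There 0% of all genes were called for 8 of the targets and 0.0186% for Setd5. Without the libraries that go against their labels 0 genes were called for Setd5. For each target between 0 and 2 of the 54 genes had an unadjusted p under 0.05 with all libraries.

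Genes that process, bind or cut collagens and laminins were read out from 4 lists. Of 31 tested enzymes and chaperones of collagen folding, Med13l shRNA raised 3 and lowered 0 in each sex, where 3.14% and 4.74% of all genes were called higher. Chd8 shRNA lowered 1 in males and 2 in females, where 6.18% and 5.99% of all genes were called lower. Plod1 and Plod2, which hydroxylate collagen lysines, rose with Med13l shRNA by 0.96 and 0.96 on the log2 scale in males (adjusted p = 0.00930 and 4.37e-04) and 1.15 and 1.08 in females (adjusted p = 0.00151 and 7.89e-05). P4hb, a subunit of prolyl hydroxylase, rose by 0.44 in females (adjusted p = 0.0167). P3h4, a partner of lysyl and prolyl hydroxylases, fell with Chd8 shRNA by 1.19 and 0.73 (adjusted p = 4.09e-05 and 0.0132). Leaving out 1 library ended the call of Plod1 in males (0.85, adjusted p = 0.0734, without nontargeting replicate 1), of P4hb (0.34, adjusted p = 0.114, without nontargeting replicate 1) and of P3h4 in females in 3 of 6 fits (adjusted p up to 0.126).

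Of 21 other matrix proteins, Chd8 shRNA raised 1 and lowered 2 in males and raised 2 and lowered 4 in females, Ash1l shRNA lowered 1 in males and Setd5 shRNA 1 in females. The shares of all genes called were 9.82% and 9.33% for Chd8 in either direction, 1.46% lower for male Ash1l and 2.14% lower for female Setd5. Ntn4, a netrin that breaks up laminin networks, rose with Chd8 shRNA by 1.33 and 1.46 (adjusted p = 1.79e-04 and 5.78e-05) and fell by 1.46 with Ash1l shRNA in males (adjusted p = 2.67e-04). Egflam, a dystroglycan ligand at synapses, rose by 2.39 with Chd8 shRNA in females (adjusted p = 0.00760), where Smoc1, a basement membrane protein, fell by 0.93 (adjusted p = 0.0178). The Egflam call ended without nontargeting or Chd8 replicate 1 (1.95 and 1.67, adjusted p = 0.0731 and 0.167), and the Smoc1 call in 3 of 6 fits without 1 library (adjusted p up to 0.122). Emilin1, an elastic fibre protein, was called lower with Setd5 shRNA in females at -2.63 (adjusted p = 0.00402) and not without the libraries that go against their labels (-1.78, adjusted p = 0.0877).

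Of 20 receptors, Chd8 shRNA raised 1 and lowered 1 in males and raised 1 and lowered 2 in females, Med13l shRNA raised 1 and lowered 1 in males and raised 2 and lowered 1 in females, Ash1l shRNA lowered 1 in males, and Setd5 shRNA raised 1 and lowered 2 in females. Of all genes, 9.82% and 9.33% were called for Chd8 in either direction, 8.06% and 10.2% for Med13l, 1.46% lower for male Ash1l and 3.12% for female Setd5. Bcam, a receptor for the laminin alpha 5 chain, fell with Chd8 shRNA by 1.999 and 1.85 (adjusted p = 5.29e-05 and 2.20e-04) and by 1.33 with Ash1l shRNA in males (adjusted p = 0.0205), a call that ended in 5 of 6 fits without 1 library (adjusted p up to 0.137). Sdc3, a heparan sulphate proteoglycan of axons, fell with Med13l shRNA by 0.92 and 1.03 (adjusted p = 3.52e-04 and 6.49e-05). Dag1, the dystroglycan that binds laminin, and Sdc1 fell with Setd5 shRNA in females by 1.30 and 1.69 (adjusted p = 0.00437 and 0.00145). Without the libraries that go against their labels these values were -1.31 and -1.62 (adjusted p = 1.99e-04 and 0.00243), and Setd5 shRNA lowered both and raised 0 receptors in each sex, where 1.24% of all genes in males and 1.16% in females were called lower.

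Of 12 metalloproteinases and inhibitors, Chd8 shRNA raised 1 and lowered 2 in males and raised 1 and lowered 1 in females, and Med13l shRNA raised 2 and lowered 1 in males and raised 1 and lowered 1 in females. Of all genes, 9.82% and 9.33% were called for Chd8 and 8.06% and 10.2% for Med13l. Mmp9, a gelatinase that acts on collagen IV, fell with Med13l shRNA by 1.53 and 1.28 (adjusted p = 3.33e-04 and 0.00202), and Mmp11 rose by 1.07 and 1.29 (adjusted p = 0.0353 and 0.00979). The inhibitor Timp2 fell with Chd8 shRNA by 0.59 and 0.66 (adjusted p = 0.00682 and 0.00230), and the membrane-bound Mmp17 rose by 0.67 and 0.55 (adjusted p = 0.0117 and 0.0439). Without 1 library the Mmp11 calls ended in 5 and 3 of 6 fits (adjusted p up to 0.196 and 0.0714) and the Mmp17 calls in 2 and 4 (up to 0.0793 and 0.246). Timp2 was not called without Chd8 male replicate 3 (-0.54, adjusted p = 0.0552) or Chd8 female replicate 1 (-0.37, adjusted p = 0.121).

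More of these genes were called for replicate number than for any knockdown, and the same held for all genes. The counts are of unlike tests, as the number test spans 11 groups and a knockdown test compares 3 libraries with 3. The labels number the libraries of each group 1 to 3, and the test asked whether same-numbered libraries of the 11 groups of a sex deviated together. In males 25 of 54 genes were called, or 46.3%, against 28.7% of all genes, and in females 39 of 54, or 72.2%, against 72.6%. In females the share was that of all genes. There were 20 genes called in both sexes, 80.0% of the male and 51.3% of the female calls.

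In males the calls were mostly for number 3, which was above number 1 in 17 of the 25. Lamb2, the laminin beta chain of synapses and vessels, had medians over 11 groups of 2.002, 2.34 and 4.02 CPM for numbers 1, 2 and 3 and was higher in number 3 than in number 1 in 11 of 11 groups (1.31 on the log2 scale, adjusted p = 4.98e-08). Col6a2 had medians of 1.85, 1.98 and 3.05 CPM and was likewise higher in 11 of 11 (0.80, adjusted p = 1.26e-05). Also higher in number 3 than 1 were Col5a1 by 0.93, Col22a1 by 0.44, Col6a1 by 0.39, Col26a1 by 0.37, Lama2 by 0.31 and Lamb1 by 0.29. Col24a1 was lower in number 3 than in number 1, at -0.95.

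In females the calls went both ways. Lama4, the laminin alpha chain of vessels and of mural cells, was lowest in number 1 (0.764 to 2.99 CPM, median 2.15), highest in number 2 (7.94 to 11.4, median 9.97) and between in number 3 (2.74 to 6.66, median 3.62). It was higher in number 2 than in number 1 in 11 of 11 groups, by 2.18 on the log2 scale (adjusted p = 5.41e-20). The cartilage collagens Col9a1 and Col10a1 were higher by 2.76 and 2.48, and Lama1 and Col26a1 by 0.92 and 0.81. Col25a1 went the other way, with medians of 37.1, 19.7 and 19.6 CPM, and was above number 1 in 0 of 11 groups (-1.14, adjusted p = 8.86e-18). Col9a3 (-1.50), Col15a1 (-1.50), Col4a5 (-1.10) and Col6a1 (-0.62) were also lower in number 2 than in number 1.

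**Figure D5:**
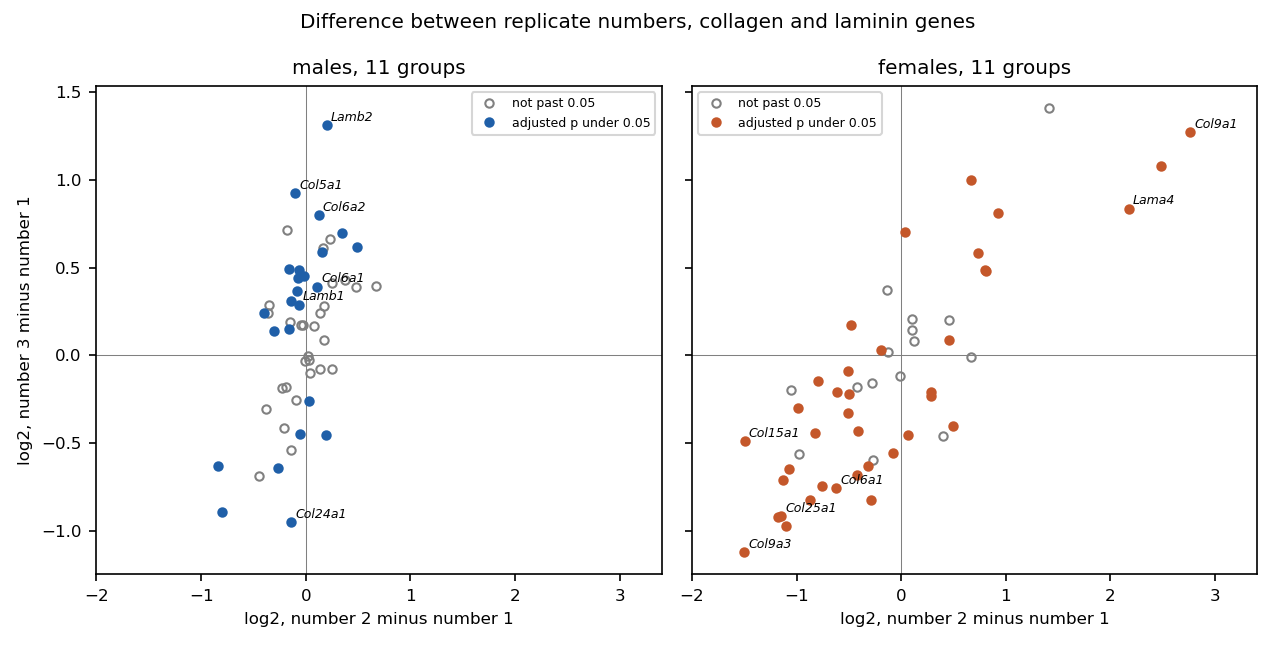
Each point is a tested gene, with 1 not shown, placed by the log2 difference of number 2 minus 1 and of number 3 minus 1 over 11 groups, males left and females right, filled where adjusted p is under 0.05. Male points spread upwards to Lamb2, while female points run from Col9a3 to Col9a1, Col10a1 and Lama4.

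Markers of other cells moved with the replicate number too. The summed astrocyte and radial glia markers had medians of 846, 518 and 590 CPM for female numbers 1, 2 and 3 and 479, 504 and 599 CPM for the male ones, and 11 of 11 markers in females and 7 of 11 in males were called. Mural markers had medians of 24.8, 50.1 and 40.3 CPM in females and 39.9, 37.0 and 29.5 CPM in males. Dcn, the leading meningeal gene after Thy1, had medians of 26.7, 8.51 and 31.4 CPM in females and 20.9, 21.1 and 9.56 CPM in males. Median endothelial sums were between 9.74 and 10.5 CPM at every number, with single libraries from 5.78 to 13.2 CPM. Median depth was 31755628, 29779775 and 33425339 counts in males and 25681971, 33411955 and 35441642 in females. The part of these cells and of depth in the values of single chains was not tested.

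As a measure of other cells, single chains therefore differed from each other. As deviations from the group mean over 66 libraries, which share library, depth and replicate number, Lama4 had a Pearson r of 0.83 with the summed mural markers (0.36 to 0.83 within a number and sex), and Col9a1 0.79 (-0.30 to 0.71). With astrocyte and radial glia markers Col4a5 had 0.78 (-0.03 to 0.73 within a number and sex), Col5a1 0.77 (-0.12 to 0.69) and Col9a1 -0.83 (-0.88 to -0.35). With the meningeal list without Thy1, Col11a2 had 0.70 (-0.41 to 0.29 within a number and sex), Col15a1 0.66 (-0.46 to 0.38), Col25a1 0.59 (-0.31 to 0.39) and Lama4 -0.73 (-0.37 to 0.46). The chains of the major fibrils had lower values with it. Col3a1 had 0.20 (0.19 to 0.45), Col1a2 0.19 (0.10 to 0.25) and Col1a1 -0.49 (-0.42 to 0.22). With endothelial markers the highest value was 0.46, for Col6a2 (0.04 to 0.85). So of the values named here, few kept 1 sign within every number and sex. Those were Lama4 with mural markers, Col9a1 with astrocyte markers, Col6a2 with endothelial markers, and Col3a1 and Col1a2 with the meningeal list without Thy1. An r over 0.5 was found for 15 of 54 genes with the astrocyte list, 13 with the meningeal list that includes Thy1, 8 with the mural list and 0 with the endothelial list.

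Among the chains themselves the 1431 pairs had a median r of 0.06. Col4a1 and Col4a2, which lie head to head on chromosome 8 with annotated starts that overlap by 22 bp, had 0.73 (0.14 to 0.94 within a number and sex). Col4a5 and Col4a6, head to head on chromosome X with 1308 bp between them, had 0.53 (-0.42 to 0.83), and Col4a3 and Col4a4, 71 bp apart on chromosome 1, had 0.13 (-0.44 to 0.52). Col9a1 and Col19a1, whose ends face each other on chromosome 1 at 9205 bp, had 0.47 (-0.27 to 0.83), and the trimer partners Col6a1 and Col6a2 had 0.32 (-0.19 to 0.37). Where genes overlap, the files do not say whether strand was used in counting, so their reads may not be told apart.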

How the data were processed

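Poly-A RNA of 66 libraries of cultured mouse neurons (22 groups of 3) was sequenced from TruSeq stranded libraries, per the labels' protocols. The deposited values are read counts per gene, made with STAR and featureCounts on mm10 per the submitters' processing notes; versions, annotation and strand setting are not given in the sources used here. Of counts from 1 to 20, 26.7% were odd, against 49.1% of counts of at least 1000. Groups came from the sample titles. The table had 48716 rows and 72 library columns, of which 6 belonged to no sample used here. The 18483 rows without a symbol (0.69 to 1.41% of counts) were left out and 149 repeated symbols summed. No libraries of a group agreed within sampling noise.

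Counts as deposited were tested with edgeR 4.0.16 (R 4.3.3, limma 3.58.1): TMM (factors 0.874 to 1.06), filterByExpr, 22 group means, robust quasi-likelihood F tests, and Benjamini-Hochberg adjustment over 16145 genes within each comparison. DESeq2 1.42.0, RLE scaling, no filter, halved counts, other sample sets, a no virus control, a replicate block and leaving out libraries were alternatives, applied to list genes after the data were seen. The tests were checked on simulated counts. Log2 CPM used a prior count of 2; exon lengths and coordinates are from GENCODE M21 (GRCm38), promoters from RefSeq (GRCm38.p6). Library totals were 13759741 to 66558546, with larger SE for chains of low level, and SE and SD cover the spread between libraries only.

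Replicate numbers, taken from the titles, were counted as pairing knockdown and nontargeting libraries where every same-numbered pair had a correlation of deviations over 0.1, which held in 6 of 9 male and 8 of 9 female comparisons. The genes named are those called in any comparison, the 2 of highest CPM in each structural class, the 10 with the smallest adjusted p for replicate number in each sex, the 3 leading genes of each marker list and up to 4 called genes of each pathway list, with exceptions named in the text. 1 gene that the rule names is not reported here. The genes, lists and tests were chosen with earlier results of these data known.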

Additional observations from a re-analysis of the deposited data

How the results depend on the processing

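No call of a named collagen, laminin or list gene changed sign under the alternatives run for it. Of the uncalled values recomputed in the same way, the Setd5 sex difference of Col19a1 (0.99) turned to -0.40 without the libraries that go against their labels and ranged from -0.26, without Setd5 male replicate 1, to 1.475, without Setd5 female replicate 2, when 1 library was left out. Of 42 calls of named list genes, 19 held in every fit without 1 library. In males 5 calls of collagens and laminins over the 9 knockdowns became 23 with the replicate block, 15 with each sex fitted separately, 11 against no virus libraries and 19 with only the 6 libraries compared. In females 8 calls became 26 with the replicate block, 15 against no virus libraries and 1 with only the libraries compared, where the 7 lost calls had adjusted p-values of 0.103 to 0.360 at log2 fold changes close to those given. Leaving out 1 library gave 3 to 6 calls in males, with 3 without nontargeting male replicate 1 or Chd8 male replicate 3, and 5 to 10 in females, with 5 without Chd8 female replicate 1 or Med13l female replicate 1. RLE scaling, no filter, halved counts, DESeq2 and leaving out the libraries that go against their labels gave 4 to 7 calls in males and 8 to 12 in females, and fitting each sex separately gave 7 in females. The replicate block raised calls for male Ash1l (2 higher and 3 lower, 8.27% of all genes), Med13l (2 and 8, 23.8%) and Kdm6b (1 lower, 3.20%), where the numbers did not pass the check for pairing. It ended no call of a named gene. For the mean of 9 knockdowns 0 calls became 1, lower, against no virus libraries. The virus and sex differences gave 0 calls under every alternative run, leave-one-out included. Calls for replicate number were 24 to 26 in males and 39 to 41 in females. The median summed meningeal markers were 239 CPM with Thy1 and 27.2 CPM without it. Besides the losses given with each gene, Col20a1 in Med13l males was lost without the low-count filter (-1.34, adjusted p = 0.0608) and against no virus libraries (-1.26, adjusted p = 0.0593), and Lama3 in Med13l females with each sex fitted separately (-1.03, adjusted p = 0.135). The cause was not tested. Precision was lower for chains of low level: the median SE of a log2 fold change was 0.80 for the 10 tested genes with a mean under 1 CPM and 0.38 for the other 44.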
